A study of Mus musculus with 6 samples.

Results

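mmu-miR-192-5p, mmu-miR-194-5p, mmu-miR-215-5p and mmu-miR-122-5p (the prefix stands for mouse and is dropped below where no value is introduced) were taken by name from the table of miRNAs (microRNAs, short RNAs that repress matching mRNAs), where all 4 are among the 1277 listed. They were measured by small RNA sequencing of mouse urinary bladder cells, in 3 Control and 3 CYP libraries. Treatment started at 8 weeks of age in both groups. The CYP mice received 4 intraperitoneal injections of cyclophosphamide (CYP, an alkylating drug whose breakdown products in urine injure the bladder lining) at 80 mg/kg, on days 2, 4, 6 and 8. The Control mice received intraperitoneal saline and are also called naive in the labels. No source used here names the strain or sex of the mice. The labels place the CYP samples 8 days after induction. They do not say if each library is its own animal, and all p-values therefore rest on the spread among these 6 samples, part or all of which may be technical. The series compares bladder miRNAs with and without CYP.

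The tumour suppressor p53 is a transcription factor that is stabilised after DNA damage. In human cells it induces miR-192, miR-194 and miR-215, which in turn repress MDM2, the ubiquitin ligase that degrades p53. The same 3 miRNAs are abundant in intestine, kidney and liver. miR-122 is the dominant miRNA of hepatocytes and stands beside the other 3 here as a liver miRNA.

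miR-192 and miR-194 are made from neighbouring hairpins on mouse chromosome 19, and miR-194 and miR-215 from a second pair on chromosome 1, so that 1 mature sequence, miR-194-5p, has 2 sources. RefSeq (GRCm38.p6, the assembly of mm10) gave the sequence of 3 of the 4 miRNAs, which are written 5′ to 3′ with the seed (bases 2 to 8, which pair with target mRNAs) in capitals, to show which of them share targets by seed.
miR-192-5p: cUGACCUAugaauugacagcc
miR-215-5p: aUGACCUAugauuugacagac
miR-194-5p: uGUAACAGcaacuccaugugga
miR-192-5p and miR-215-5p share the seed UGACCUA, and no other mature mouse miRNA in the RefSeq table has it. Over their 21 bases they are identical at 18 and differ by C1A, A12U and C20A (miR-192-5p first, positions counted from 1 at the 5′ end). The seed of miR-194-5p, GUAACAG, belongs to that miRNA alone. No source used here says how reads of near-identical sequences were assigned, so the low counts of miR-215-5p beside the high counts of miR-192-5p are uncertain.

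The 4 hairpins are printed with the member's mature sequence in capitals, since they set which other products can tell the sources of miR-194-5p apart.
Mir194-2: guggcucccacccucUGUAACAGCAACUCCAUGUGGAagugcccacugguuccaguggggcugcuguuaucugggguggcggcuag
Mir192: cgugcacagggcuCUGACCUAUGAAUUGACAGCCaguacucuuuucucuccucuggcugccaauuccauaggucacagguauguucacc
Mir194-1: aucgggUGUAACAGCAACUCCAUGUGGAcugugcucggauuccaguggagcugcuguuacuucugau
Mir215: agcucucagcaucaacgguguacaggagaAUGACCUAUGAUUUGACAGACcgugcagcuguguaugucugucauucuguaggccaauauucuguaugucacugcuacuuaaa
On the GRCm38 plus strand, Mir194-2 lies on chromosome 19 from 6264643 to 6264728 and Mir192 from 6264844 to 6264932, 115 bases apart, with no other gene of the GENCODE M21 annotation overlapping them. Mir194-1 lies on chromosome 1 from 185313319 to 185313385 and Mir215 from 185313581 to 185313692, 195 bases apart. Mir194-1 is in an intron of the antisense RNA gene 2010103J01Rik and Mir215 overlaps an exon of it, and both are opposite an intron of Iars2, which encodes a mitochondrial isoleucyl-tRNA synthetase. The opposite strands of the miR-194 hairpins differ by A8G, C19U, U20C and C22G (miR-194-1-3p first), so these can mark the source.
miR-194-2-3p: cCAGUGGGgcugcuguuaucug
miR-194-1-3p: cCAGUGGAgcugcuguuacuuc

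Each library held between 14900120 and 19442420 reads, of which 62.9% to 69.0% were counted as miRNA. The miRNA table came to between 9110719 and 12180739 UMIs per library (unique molecular identifiers, random tags that mark single cDNA molecules). Control replicate 3 and CYP replicate 1 list no count between 1 and 9, while the other 4 libraries list from 63 to 211 such counts, so a 0 in those 2 libraries may stand for any count under 10. Reads too short to be counted made up 6.74% to 11.7% of Control and 12.8% to 15.6% of CYP libraries, without overlap, and their part in the results was not tested. Markers of bladder epithelium and muscle were abundant, and none was at 0 in any library. The 10 epithelial miRNAs summed to 49649 to 52174 CPM (UMIs per 1000000 miRNA UMIs, after TMM scaling) in Control and 50519 to 55268 in CYP, and 7 muscle miRNAs to 301235 to 351327 and 271428 to 301980 CPM. In such bulk RNA, fewer cells of a type and less RNA per cell cannot be told apart.

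The 4 miRNAs spanned a wide range of levels. miR-192-5p and miR-194-5p were nearly equal, miR-122-5p was far lower and miR-215-5p was at the edge of detection. None of the 4 was called between CYP and Control in edgeR's quasi-likelihood test at an adjusted p below 0.05 over all 885 miRNAs tested, where 12.3% were called. edgeR's unadjusted p was below 0.05 for 1 of them, miR-194-5p, as for 23.5% of all miRNAs tested. DESeq2 called the same one, and 15.4% of all. All 4 fitted changes were below 0, as were 47.2% of those of all miRNAs tested.

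mmu-miR-192-5p, the abundant product of the chromosome 19 pair, was counted at 2841, 2441 and 3379 UMIs in Control replicates 1, 2 and 3 and at 3073, 2908 and 2374 in CYP replicates 1, 2 and 3. On the CPM scale its levels were 285, 274 and 276 in Control and 263, 278 and 231 in CYP. The groups overlapped, since CYP replicate 2 lay within the Control range and CYP replicate 3 was the lowest of the 6. It ranked 126th of the 1277 miRNAs by mean level and took 0.0267% of miRNA UMIs. The mean was 278 ± 5.60 CPM (SD, n = 3) in Control against 257 ± 23.9 (SD, n = 3) in CYP. The log2 fold change was −0.11 ± 0.09 (SE, edgeR adjusted p = 0.522), and its 95% interval ran from a fold of 0.802 to 1.07.

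mmu-miR-194-5p, which both hairpin pairs can make, was counted at 2798, 2460 and 3598 UMIs in the Control libraries and at 2856, 2601 and 2517 in CYP. Its levels were 280.3, 276 and 294 CPM in Control and 244, 249 and 245 CPM in CYP. Every CYP library lay below every Control library, as it did for 13.9% of all miRNAs tested, while 30.2% did not overlap in either direction. The other 3 members overlapped. The separation depended on the scaling: in plain CPM, without TMM factors, the levels were 254, 270.0 and 295 in Control and 249, 251 and 268 in CYP, and the groups overlapped. The mean was 283 ± 9.35 CPM (SD, n = 3) in Control against 246 ± 2.31 (SD, n = 3) in CYP, 1.15-fold higher in Control. The log2 fold change was −0.20 ± 0.08 (SE), with an unadjusted p of 0.0288 and an adjusted p of 0.152 in edgeR, so it was not called. The 95% interval of the fold ran from 0.767 to 0.982.

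That outcome depended on the tool and the scaling. DESeq2 called miR-194-5p at nearly the same size (log2 fold change −0.22, adjusted p = 0.00327), and edgeR with upper-quartile factors called it at −0.33 (adjusted p = 0.0319), over a range of 0.00327 to 0.590 for 17 alternatives. Upper-quartile factors shifted the median log2 fold change of all miRNAs by −0.12 and library totals by 0.12. Relative to that median miR-194-5p lay at −0.23 under each of the 4 scalings in edgeR (TMM, RLE, library totals and upper-quartile). A change of scaling shifts all log2 fold changes by nearly the same amount, so this near-constant distance is built in and is no sign of robustness. With other filters the distance of miR-194-5p from the median was −0.15 (mean of at least 10 CPM) and −0.27 (no filter on low counts). Without both libraries that list no count from 1 to 9, an alternative chosen after seeing the data, the log2 fold change of miR-194-5p was −0.18 (edgeR adjusted p = 0.570). In the authors' deposited table the fold change of miR-194-5p is 0.84 with an unadjusted p of 0.00133, and that of miR-192-5p is 0.89 with an unadjusted p of 0.137.

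**Figure D1:**
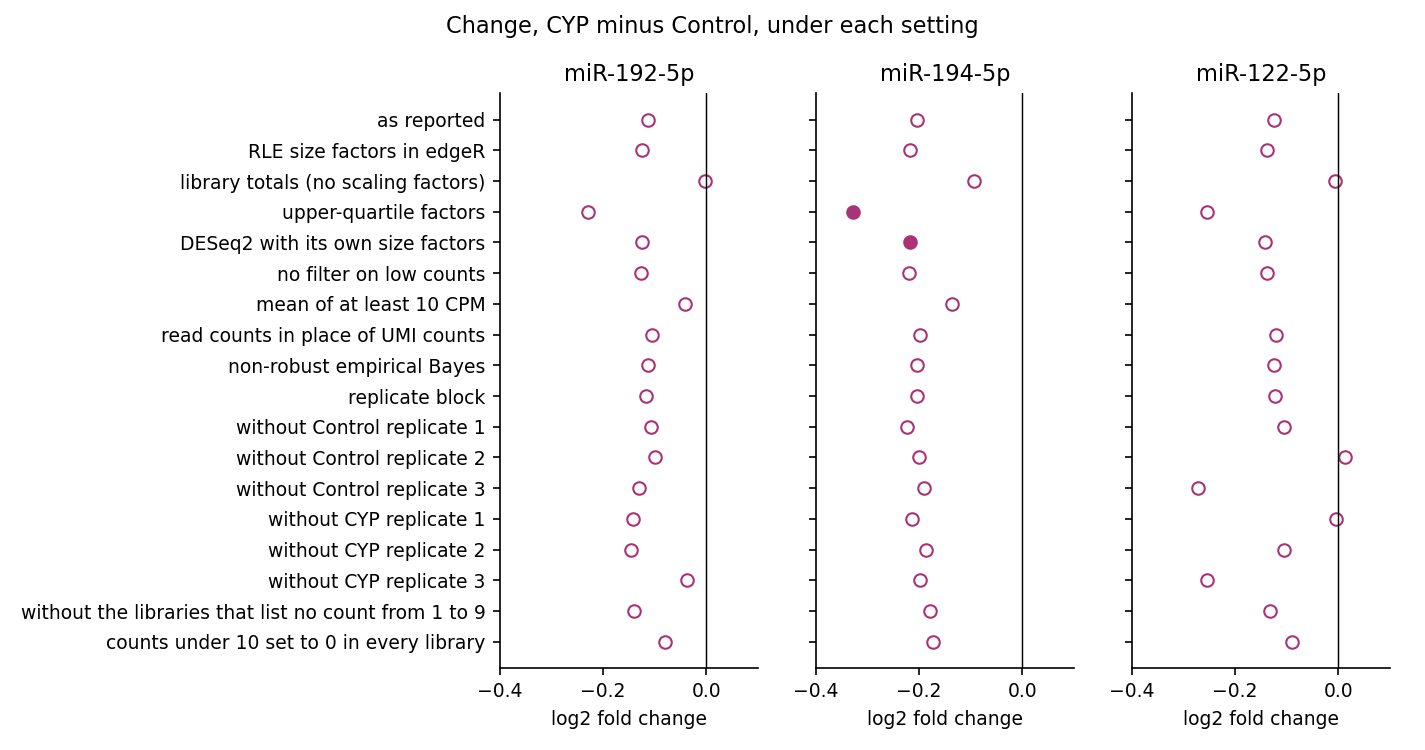
Log2 fold change, CYP minus Control, of miR-192-5p, miR-194-5p and miR-122-5p (x axis) under each setting (y axis), filled where the adjusted p was below 0.05. miR-194-5p stayed below 0 in every setting shown, from −0.33 to −0.094, and was called in 2 of 17 alternatives, while miR-122-5p reached 0.014 without Control replicate 2.

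mmu-miR-122-5p, the hepatocyte miRNA, was detected in all 6 libraries at 63, 63 and 61 UMIs in Control and 53, 59 and 68 in CYP. Its levels were 6.31, 7.07 and 4.98 CPM in Control and 4.53, 5.64 and 6.62 CPM in CYP. The groups overlapped over most of their range, and the mean was 6.12 ± 1.06 CPM (SD, n = 3) in Control against 5.60 ± 1.04 (SD, n = 3) in CYP. Its coefficient of variation was 17.3% in Control and 18.6% in CYP, where counting alone gives 12.8% at its mean count. The log2 fold change was −0.12 ± 0.20 (SE, edgeR adjusted p = 0.789) and became 0.014 without Control replicate 2. The 95% interval of the fold, 0.676 to 1.25, spans 1. In the authors' deposited table its fold change is 0.91 with an unadjusted p of 0.662.

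mmu-miR-215-5p, which shares its seed with miR-192-5p, was listed above 0 in 3 of the 6 libraries, at 9 and 15 UMIs in Control replicates 2 and 3 and at 14 UMIs in CYP replicate 3. It was listed at 0 in Control replicate 1 and in CYP replicates 1 and 2. No fold is given, since the fitted change, which was not called (edgeR adjusted p = 0.871), depends on the values listed at 0 and ran from −6.00 to −0.15 on the log2 scale when single libraries were left out. Where it was listed, the ratio of miR-192-5p to miR-215-5p counts was 271 and 225 in Control and 170 in CYP. In the authors' deposited table its fold change is 0.96 with an unadjusted p of 0.750.

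**Figure D2:**
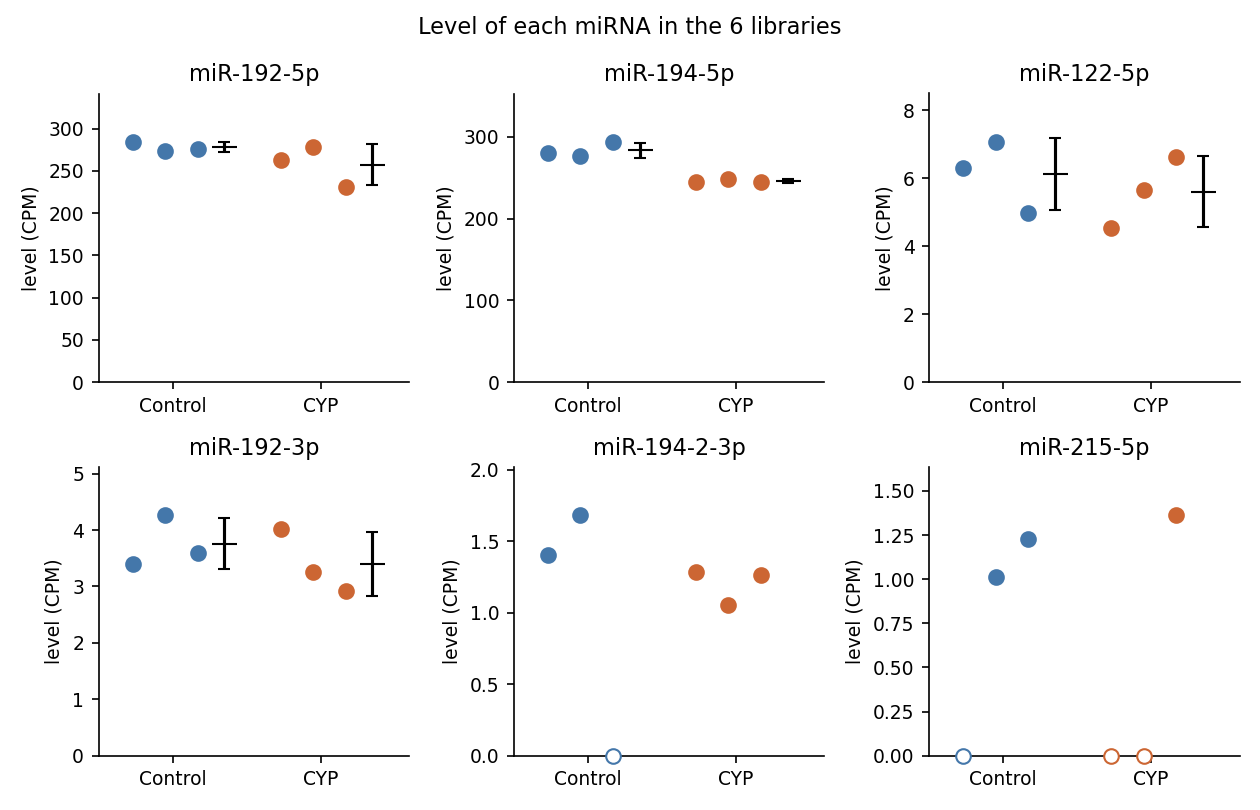
Level in CPM (y axis, from 0) of miR-192-5p, miR-194-5p, miR-122-5p, miR-192-3p, miR-194-2-3p and miR-215-5p in each library (points, replicates 1 to 3 from left to right), with the mean and SD of each group where no library is listed at 0, and open points for libraries listed at 0. The CYP points of miR-194-5p, 244 to 249 CPM, all lie below its Control points, 276 to 294 CPM (after TMM scaling, not in plain CPM), while the groups of the other 5 overlap.

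The order of the levels was miR-192-5p, miR-194-5p, miR-122-5p and miR-215-5p. The printed sequences of miR-192-5p, miR-194-5p and miR-215-5p are 21 or 22 bases long, and that of miR-122-5p was not available. Whether length, or how evenly the kit captures different sequences, bears on the order was not tested. miR-192-5p and miR-194-5p, at 268 and 265 CPM over all 6 libraries, are next to each other among the 1277 miRNAs and did not differ beyond their spread. Above them stood miR-125b-2-3p at 274 CPM and below them miR-382-5p at 262 CPM, also within the spread. miR-122-5p averaged 5.86 CPM, between miR-3071-3p at 5.97 and miR-488-3p at 5.84 CPM, none of which can be ranked against the others beyond their spread. miR-215-5p averaged 0.600 CPM, with the libraries listed at 0 counted as 0, as did its neighbour above, miR-344c-5p, and miR-6539 below it averaged 0.595 CPM.

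Within a library the count of miR-192-5p over that of miR-194-5p was 1.02, 0.992 and 0.939 in Control and 1.08, 1.12 and 0.943 in CYP. The ratio lay close to 1 in all libraries and the groups overlapped, with a difference of the log2 ratio of 0.087 (exact two-sided permutation test, p = 0.300, Benjamini-Hochberg adjusted p = 1.0 over 9 ratios). With 3 libraries against 3 the smallest p this test can give is 0.1. miR-192-5p over miR-122-5p ran from 38.7 to 55.4 in Control and from 34.9 to 58.0 in CYP, and miR-194-5p over miR-122-5p from 39.0 to 59.0 and from 37.0 to 53.9. Neither differed between the groups beyond the spread (exact permutation p = 1.0 and 0.700, adjusted p = 1.0 for both).

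The opposite strands of the hairpins, usually degraded after processing, were much rarer. miR-192-3p, from the other strand of Mir192, was counted at 34, 38 and 44 UMIs in Control and at 47, 34 and 30 in CYP. Its mean was 3.76 ± 0.452 CPM (SD, n = 3) in Control against 3.40 ± 0.565 (SD, n = 3) in CYP, with a log2 fold change of −0.13 ± 0.21 (edgeR adjusted p = 0.781). miR-192-5p exceeded miR-192-3p from 64.2-fold to 83.6-fold in Control and from 65.4-fold to 85.5-fold in CYP, so the balance of the strands overlapped between the groups (difference of the log2 ratio 0.033, exact permutation p = 0.700, adjusted p = 1.0).

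Of the strands that can tell the sources of miR-194-5p apart, the one from chromosome 19 was listed in more libraries. miR-194-2-3p was listed in 5 of the 6 libraries, at 14 and 15 UMIs in Control replicates 1 and 2 and at 15, 11 and 13 in CYP. The other library, Control replicate 3, lists it at 0 and is 1 of the 2 that list no count under 10. miR-194-1-3p, from chromosome 1, was listed in CYP replicate 1 alone, at 12 UMIs beside 15 of miR-194-2-3p. miR-194-2-3p was not called (edgeR adjusted p = 0.907), and its fitted log2 change turned from 0.27 to −0.37 without Control replicate 3. miR-194-1-3p did not reach the filter on low counts.

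The other miRNAs reported to be transcribed or processed under p53 divided into those of the miR-34 family and the rest. Of 15 names on the list 14 were tested. In edgeR 6 rose, none fell and 8 did not pass, where 6.67% of all miRNAs rose and 5.65% fell. The median log2 fold change of the 14 was 0.11, beside 0.021 over all miRNAs tested. Without both libraries that list no count from 1 to 9, 5 of them rose and none fell. At that setting 14 of all 874 miRNAs tested rose and 4 fell. The 6 on the list that rose over all 6 libraries were the 2 strands each of miR-34a, miR-34b and miR-34c, direct targets of p53 in mouse and human cells. miR-34a-5p stood at 1618, 1537 and 1382 CPM in Control and at 3665, 3393 and 4252 in CYP, a 2.49-fold higher level with a 95% interval of 2.14 to 2.91 (edgeR adjusted p = 1.01e-05). The upper limits for miR-192-5p, 1.07, and miR-194-5p, 0.982, lie below that interval. This is a description and no test, since miR-34a-5p was set against them after its values were seen.

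Among the 8 that did not pass, miR-107-3p gave a log2 fold change of −0.20 (edgeR adjusted p = 0.107), miR-143-3p −0.20 (edgeR adjusted p = 0.216) and miR-145a-5p −0.22 (edgeR adjusted p = 0.267). These calls moved with the setting. DESeq2 called 1 of the 8 lower, miR-107-3p, edgeR with upper-quartile factors 2, miR-107-3p and miR-145a-5p, and edgeR without CYP replicate 3 called 1, miR-145a-5p. miR-143-3p and miR-145a-5p come from 1 cluster that is abundant in smooth muscle. miR-22-3p gave 0.17, miR-16-5p 0.060 and miR-15a-5p 0.036, the last 2 being repressors of cell cycle genes. miR-141-3p and miR-200c-3p, epithelial miRNAs of 1 cluster, gave 0.041 and 0.012.

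Ratios to miR-34a-5p within libraries describe the same difference free of scaling, and are given with no test, since miR-34a-5p was chosen for its change after the data were seen. miR-34a-5p exceeded miR-192-5p by 5.69-fold, 5.61-fold and 5.01-fold in Control and by 13.9-fold, 12.2-fold and 18.4-fold in CYP. Over miR-194-5p the excess was 5.77-fold, 5.57-fold and 4.70-fold in Control and 14.999-fold, 13.6-fold and 17.4-fold in CYP. For both ratios every CYP library lay above every Control library, and the group means differed by 1.43 and 1.52 on the log2 scale.

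**Figure D3:**
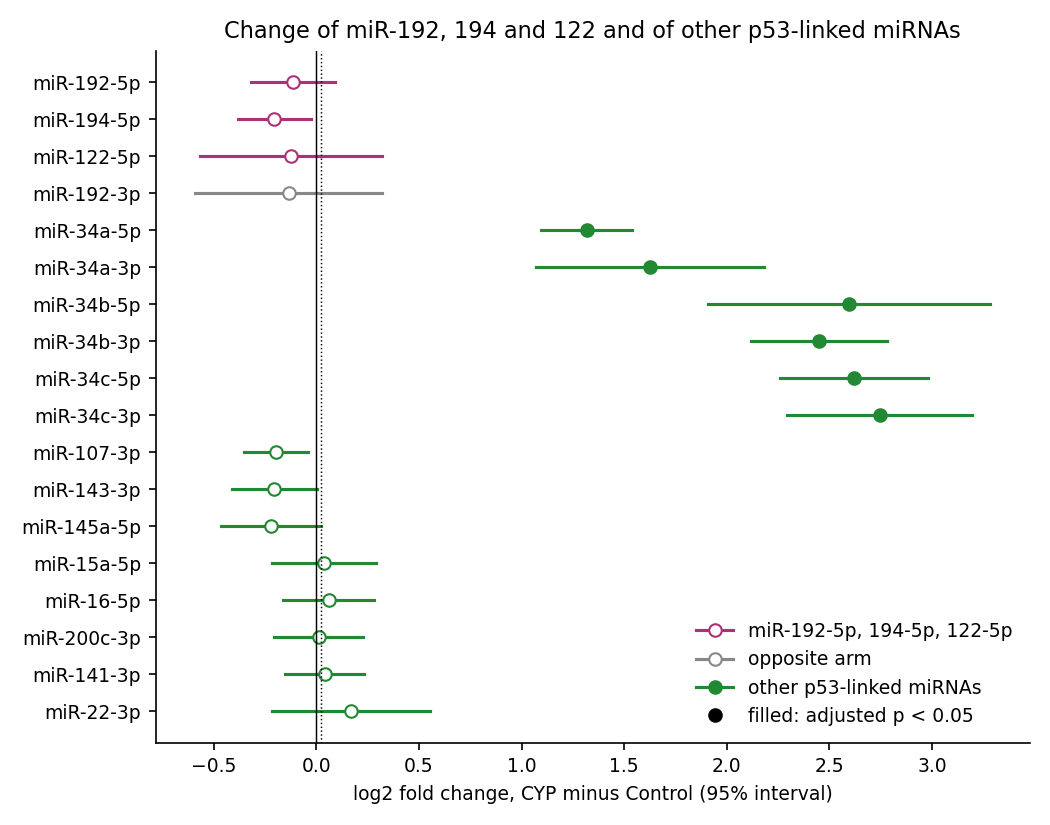
Log2 fold change with its 95% interval (x axis, CYP minus Control) of miR-192-5p, miR-194-5p, miR-122-5p, the opposite strand miR-192-3p and 14 other p53-linked miRNAs (y axis), filled where the adjusted p was below 0.05, with a dotted line at the median of all tested miRNAs. The 6 miR-34 strands lie from 1.32 to 2.75, while miR-192-5p, miR-194-5p and miR-122-5p lie between −0.20 and −0.11. miR-215-5p is left out because 3 libraries list it at 0.

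**Figure D4:**
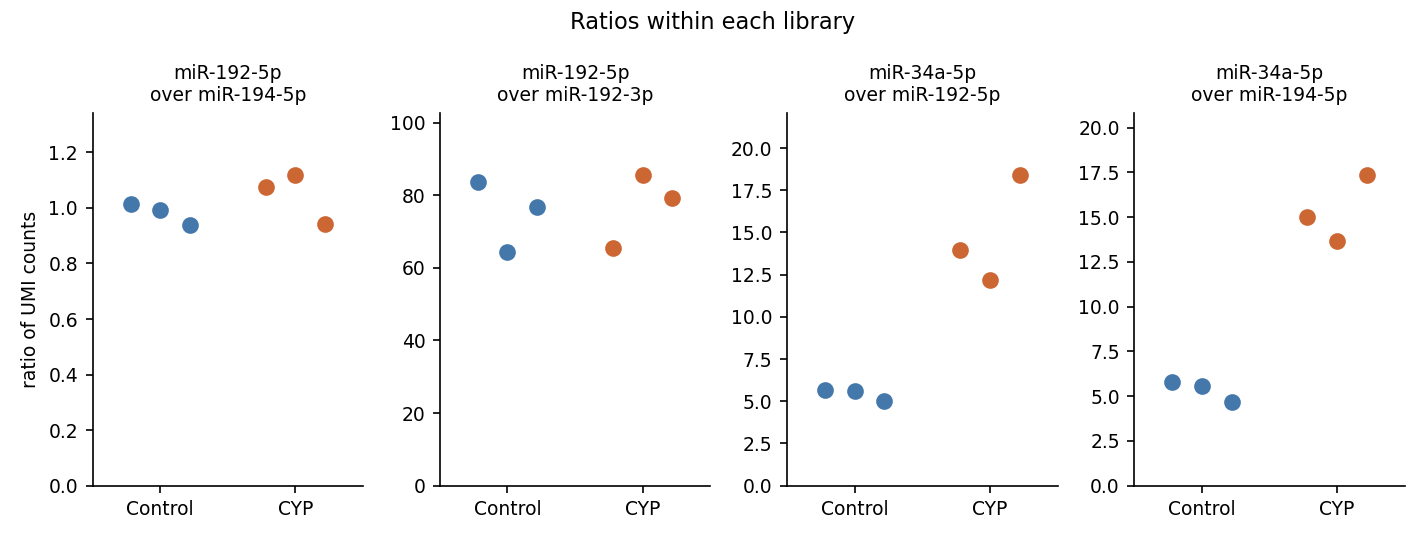
Ratio of UMI counts within each library (y axis, from 0; points are replicates 1 to 3 from left to right) for miR-192-5p over miR-194-5p, miR-192-5p over miR-192-3p and miR-34a-5p over miR-192-5p and miR-194-5p. The first 2 ratios overlap between the groups, and the last 2 run from 4.70 to 5.77 in Control and from 12.2 to 18.4 in CYP.

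**Figure D5:**
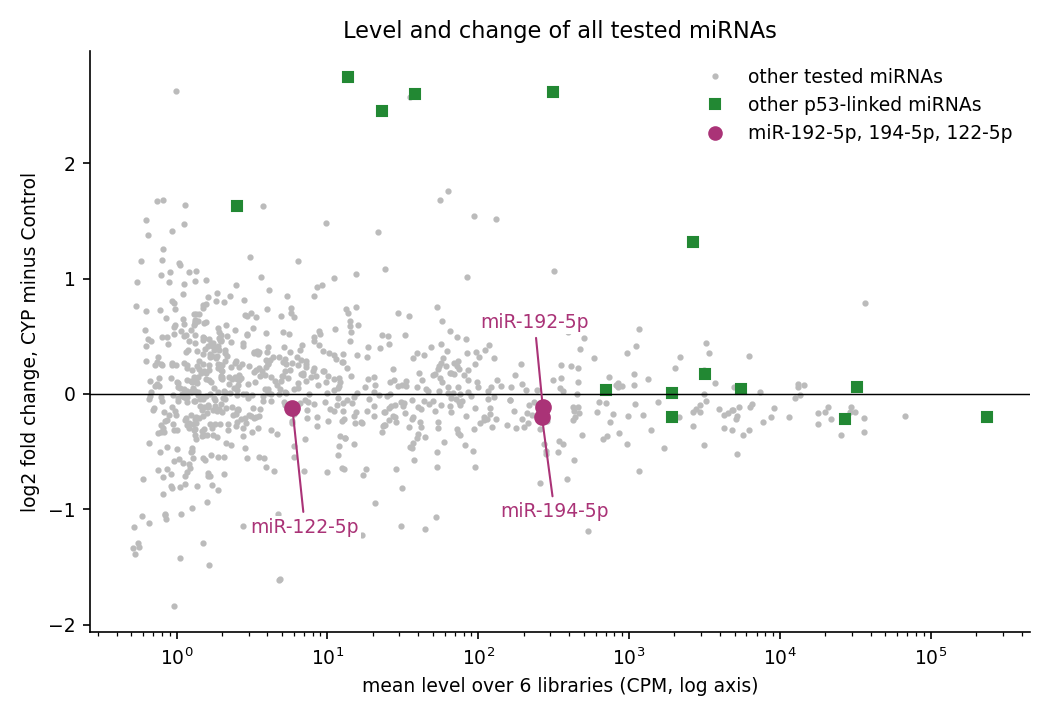
Mean level in CPM (x axis, log scale) and log2 fold change, CYP minus Control (y axis), of the 885 tested miRNAs, with miR-192-5p, miR-194-5p and miR-122-5p and the other p53-linked miRNAs marked. miR-192-5p and miR-194-5p lie side by side near 268 and 265 CPM within the bulk of the miRNAs, below the miR-34 strands.

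Other miRNAs enriched in liver, pancreas, gut or kidney were low in these cells, as miR-122-5p was. Of 7 names on the list 6 were tested and none passed in edgeR or DESeq2, at a median log2 fold change of −0.24, with 4 of the 6 below 0. In edgeR 0 of the 6 had an unadjusted p below 0.05, beside 23.5% of all miRNAs tested, and 2 of the 6 had one with upper-quartile factors or without CYP replicate 3. Their summed level was 43.4 to 47.0 CPM in Control and 36.4 to 40.5 CPM in CYP after TMM scaling. In plain CPM it was 42.5, 45.6 and 43.6 in Control and 40.3, 36.7 and 44.2 in CYP, and the groups overlapped. The highest of the 6 was miR-204-5p, a miRNA of kidney and retinal pigment epithelium, at 25.5 ± 3.54 CPM (SD, n = 3) in Control against 21.1 ± 2.22 (SD, n = 3) in CYP. miR-802-5p, best known from liver, stood at 3.53 ± 0.299 and 2.80 ± 0.151 CPM, miR-217-5p and miR-216a-5p, of pancreatic acinar cells, at 4.79 and 9.07 CPM in Control, and miR-375-3p, of endocrine and gut epithelial cells, at 2.21 CPM. The other strand of miR-802, miR-802-3p, was counted at 9, 6 and 0 UMIs in Control and at 11, 10 and 13 in CYP. Its log2 fold change lay above 0, at 1.03 ± 1.19 (SE, edgeR adjusted p = 0.675). The 0 is in Control replicate 3, which lists no count under 10.

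Some markers of other cell types were called between the groups, in both directions. Of 5 erythroid miRNAs 4 fell, and the 5 summed to 2266 to 2890 CPM in Control and 1677 to 1880 in CYP. The 7 leukocyte miRNAs summed to 4378 to 4542 CPM in Control and 3438 to 4056 CPM in CYP. Of these 7, 2 fell, miR-150-5p of lymphocytes and miR-146a-5p, which NF-kB induces. The rest did not pass and went both ways on the log2 scale. miR-142a-3p and miR-142a-5p lay below 0, at −0.31 (edgeR adjusted p = 0.162) and −0.29 (edgeR adjusted p = 0.328). Upper-quartile factors called both lower. Above 0 lay miR-223-5p of myeloid cells at 0.43 (edgeR adjusted p = 0.0785, called higher with library totals), miR-223-3p at 0.13 and miR-155-5p at 0.029. Of 5 fibroblast miRNAs 1 fell, miR-199b-5p. The 5 summed to 22629 to 23789 CPM in Control and 17625 to 21046 CPM in CYP. Of the 5, 3 lay below 0, while miR-214-3p and miR-214-5p lay above it at 0.026 and 0.10 and did not pass. Of 10 epithelial miRNAs 2 rose, miR-183-5p and miR-429-3p, 1 fell, miR-203-3p, and 7 did not pass, where 6.67% of all miRNAs rose and 5.65% fell. With library totals 4 rose and 0 fell, and with upper-quartile factors 0 rose and 1 fell. None of the 7 muscle and none of the 2 endothelial miRNAs passed in edgeR. At an unadjusted p below 0.05 edgeR had 2 of the muscle miRNAs, miR-133a-3p and miR-145a-3p, and 1 of the endothelial, miR-126a-5p, beside 23.5% of all miRNAs. These lay below 0. DESeq2 called 2 muscle and 1 endothelial miRNA lower, where it called 15.4% of all miRNAs in either direction. Of the 7 muscle miRNAs 6 lay below 0. The other, miR-206-3p, lay above it at 1.76 ± 0.72 (SE, edgeR adjusted p = 0.226) and was called higher with the replicate block. Without both libraries that list no count from 1 to 9, 1 erythroid and 1 leukocyte miRNA fell, and none of the fibroblast or epithelial miRNAs passed. At that setting 14 of all 874 miRNAs tested rose and 4 fell. The summed erythroid and fibroblast levels were lower in every CYP library both after TMM scaling and in plain CPM, while the summed leukocyte level was so only after TMM scaling. The summed epithelial level overlapped after TMM scaling. In plain CPM it was higher in every CYP library (52403 to 56398) than in Control (47221 to 49879). The part of these cell types in the values of miR-194-5p was not tested.

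The 4 levels together summed to 571, 558 and 576 CPM in Control and to 512, 532 and 484 CPM in CYP, with every CYP library below every Control library after TMM scaling. The difference was −59.2 CPM (exact two-sided permutation test, p = 0.1, the smallest that 3 against 3 allows). In plain CPM the difference was −18.0 CPM (exact permutation p = 0.5) and the groups overlapped. miR-192-5p and miR-194-5p made up 98.8% of this sum.

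Over the 6 libraries the miRNAs of at least 10 CPM most like miR-192-5p, by Pearson's r of log2 CPM, were let-7f-5p (0.97), miR-26b-5p (0.96) and let-7a-5p (0.96), picked from 377. For miR-194-5p they were miR-411-5p (0.99), miR-369-5p (0.99) and miR-369-3p (0.97). All 3 were called lower in CYP, as were 5.65% of all miRNAs tested. They were picked for likeness to a miRNA that lay lower in every CYP library after TMM scaling, so their direction is largely built in. The r of miR-194-5p with miR-192-5p was 0.60. For miR-122-5p the highest were miR-490-3p (0.87), miR-652-3p (0.81) and miR-127-5p (0.78), of 378. These are descriptions over 6 points that share library depth and group, and each is the highest of many. miR-215-5p was left out because of the libraries listed at 0.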

How the data were processed

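The deposited tables hold UMI counts and read counts per miRNA, raw whole numbers per the file headers. A further deposited table holds fold changes (CYP over Control) and p-values computed with DESeq2 and not adjusted, per the file headers. The submitters' processing notes name FastQC 0.11.7, Trim Galore, STAR 2.6, DESeq2 and mm10. Per the labels' protocols, 100 ng of total RNA went into each library. Which tool counted the reads is not stated. All listed miRNAs reach 10 UMIs in at least 1 library.

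The UMI counts were fitted in edgeR 4.0.16 (R 4.3.3) with TMM factors, its expression filter (minimum count 10, minimum total 15) and the robust quasi-likelihood test, Benjamini-Hochberg adjusted over all 885 miRNAs tested. The SE is the log2 fold change over the square root of F. DESeq2 1.42.0, other scalings and filters, read counts, the replicate block and leaving out each library were alternatives. Log2 ratios had 0.5 UMI added to both counts, and printed ratios had none. The procedure was tested on simulated data. The members and lists were chosen with earlier results of these data known. The miRNAs named are the 4 members, their opposite strands, their neighbours in level, the 3 most alike to each, and for every list up to 4 by smallest p plus those its count needs. miR-34a-5p was set against the members after its values were seen.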

Additional observations from a re-analysis of the deposited data

How the results depend on the processing

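miR-194-5p was called with upper-quartile factors (log2 fold change −0.33) and in DESeq2 (−0.22), and lay below 0 in all 17 alternatives. miR-192-5p lay between −0.23 and −0.0033 and was called in none of 17. With single libraries left out, miR-122-5p ran from −0.27 to 0.014 (without Control replicate 2) and miR-194-2-3p from −0.37 (without Control replicate 3) to 0.85. Without both libraries that list no count from 1 to 9, chosen after seeing the data, miR-194-2-3p gave −0.41. The difference of the summed level ran from −70.7 to −46.6 CPM with single libraries left out and was −53.3 on read counts. It was −18.0 in plain CPM and, with read counts as well (added after seeing the data), −13.7, with an exact permutation p of 0.5 and overlapping groups in both. The cause was not tested.

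Of all miRNAs 109 were called (59 higher, 50 lower), and 58 (without CYP replicate 1) to 139 with single libraries left out. It was 62 without Control replicate 3 and 18 without both libraries that list no count from 1 to 9, which leaves 2 libraries a group. The split was 78 to 29 with library totals, 37 to 95 with upper-quartile factors and 57 to 79 in DESeq2. With single libraries left out, the difference of the log2 ratio ran from −0.15 to 0.22 for miR-192-5p over miR-122-5p, from −0.21 to 0.094 for miR-194-5p over miR-122-5p and from −0.073 to 0.14 for miR-192-5p over miR-192-3p, which gave −0.00019 on read counts.

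Same-numbered libraries did not deviate together (r = 0.022, −0.33 and 0.047). With deviations from the means of only 3 libraries a group, this cannot settle whether the numbers mark pairs, and the labels do not say. The highest correlations were between Control replicate 2 and CYP replicate 3 (0.41) and Control replicate 1 and CYP replicate 2 (0.39). With the replicate block 142 miRNAs were called, and none of the 4 members (miR-194-5p −0.20, edgeR adjusted p = 0.11). The low counts limit what can be said of miR-122-5p and miR-215-5p.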
